A study of Rattus norvegicus with 10 samples.

Results

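Enpp1 and Slc28a2, 2 genes of extracellular nucleotide and nucleoside handling, were each measured in rat lung by 1 catalogue probe among the 38804 noncontrol probes of a custom Agilent array. They are 2 of the 30 genes on the array that could be named. They were found by the RefSeq accession that the scanner files give for the probe, NM_053535 for Enpp1 (probe A_43_P12841) and NM_031664 for Slc28a2 (probe A_44_P1024721). RNA was taken from whole lung tissue of male Wistar rats aged 8 weeks, 5 from a septic shock model in which lipopolysaccharide (LPS) was given and 5 controls, 1 single-colour Cy3 array per sample. LPS comes from the cell wall of Gram-negative bacteria and triggers innate immunity. How much LPS was given, by which route and how long before sampling, and what the controls received, the labels do not say. The labels number the samples without stating whether they are separate animals, so the p-values describe only the variation among these samples, which may be technical.

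Cells that are injured or activated release ATP, which acts on purinergic receptors of neighbouring and immune cells. Enzymes on the cell surface break the nucleotide down to the nucleoside adenosine, which dampens inflammation through receptors of its own and is then removed by transporters. Enpp1 encodes a membrane-bound pyrophosphatase and phosphodiesterase that splits extracellular ATP into AMP and pyrophosphate and also degrades the immune signal cGAMP. Slc28a2 encodes a concentrative transporter that carries purine nucleosides, adenosine among them, and uridine into cells together with sodium.

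Slc28a2 signal was 1.47-fold higher in LPS lungs than in controls, with a 95% interval of 1.14 to 1.88, over all 10 arrays. Enpp1 showed no difference that passed the test, with an LPS to control ratio of 0.906 and an interval of 0.558 to 1.47. Enpp1 varied widely between arrays of the same group, and its low arrays were on 1 slide. With slide as a block Slc28a2 was 1.33-fold (fixed block) or 1.40-fold (random block) higher, with wider errors, and did not pass the test; the fixed block rests on 1 control array. In whole tissue, a change in the number of cells that hold a transcript and a change in its amount per cell cannot be told apart.

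Slides were inferred from the scan stamps of the scanner files, since slide barcodes were not given. Arrays that shared a stamp were taken to lie on the same slide, which gave 3 slides. Slide 2 held 4 controls (replicates 15, 16, 17 and 18), slide 1 held LPS replicates 6 and 7, and slide 3 held LPS replicates 1, 3 and 5 with control replicate 20. Control replicate 20 stood apart from its group: over probes, the SD of its log2 distance to the mean of its group's remaining arrays was 0.74, against 0.23 to 0.38 for every other array. Between 90.1% and 93.8% of noncontrol spots per array were well above background, and none was saturated. None of the 33 lung cell markers listed for a check of the tissue had a probe that could be named, so the tissue label was not checked against markers. Of 41 listed genes of extracellular nucleotide and nucleoside handling, 2 had a named probe, Enpp1 and Slc28a2 themselves. P2rx2, which encodes an ATP-gated channel and was not on that list, also had a named probe and was added after the data were seen. Its signal was dim, between 4.37 and 8.33 before scaling with 1 to 10 of 10 spots well above background per array, and its log2 difference of -0.13 ± 0.12 (SE) had a limma adjusted p of 0.426.

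Levels were expressed as the log2 of the processed signal minus the 75th percentile of that signal on the array, here called the scaled log2 signal. Each probe was printed at 10 spots per array. For Enpp1 all 100 spots entered the values, and for Slc28a2 98 did, 1 outlier spot being left out in LPS replicate 3 and 1 in control replicate 15. Every spot of both probes was well above background. The median pixel signal of the spots was 26.1 to 87.5 times the local background for Enpp1 and 180.2 to 769.7 times for Slc28a2, depending on the array. The SD between spots of 1 array was 0.091 to 0.14 on the log2 scale for Enpp1 and 0.097 to 0.14 for Slc28a2. With spots taken as independent, the mean of an array had a standard error of at most 0.045 for either probe. The spots were not fully independent, since the same ones tended to lie high or low across arrays. The spread between arrays described next was larger than that between spots.

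For Enpp1, the ectoenzyme, the scaled log2 signal in the LPS arrays was 0.19 in replicate 1, 0.84 in replicate 3, 1.12 in replicate 5, 1.87 in replicate 6 and 1.22 in replicate 7. In the controls it was 1.46 in replicate 15, 1.69 in replicate 16, 1.33 in replicate 17, 1.28 in replicate 18 and 0.18 in replicate 20. The groups overlapped almost completely, with 1 LPS array above every control and 1 control below every LPS array. The lowest 4 of the 10 arrays were the 4 arrays of slide 3. Before scaling, the signal was 418, 723, 1022, 1750 and 1096 in LPS replicates 1, 3, 5, 6 and 7 and 919, 856, 747, 698 and 495 in control replicates 15, 16, 17, 18 and 20.

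The group means of Enpp1 were 1.05 ± 0.61 (SD, n = 5) in LPS lungs and 1.19 ± 0.58 (SD, n = 5) in controls. The log2 difference was -0.14 ± 0.32 (SE), with an adjusted p of 0.748 in limma's moderated test, and the 2-sided exact permutation p was 0.683 over 252 arrangements of the arrays. The SD of the controls was 0.18 (n = 4) without control replicate 20. Leaving that array out gave -0.39 ± 0.27 (SE), a limma adjusted p of 0.233 and an exact permutation p of 0.254. Without LPS replicate 1, the lowest LPS array, it was 0.072.

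In both treatments the Enpp1 values of slide 3 lay below those of the other slide. Control replicate 20 on slide 3 lay at -1.26 relative to the mean of the slide 2 controls on the log2 scale. Among LPS arrays, those on slide 1 had a mean of 1.55 and those on slide 3 a mean of 0.71, a log2 difference of 0.83. Set against the slide 2 controls, the slide 3 LPS arrays were at -0.73 ± 0.21 (SE), with a limma adjusted p of 0.0192. The slide 1 LPS arrays were at 0.10 ± 0.20 (SE) relative to the same controls, with a limma adjusted p of 0.692. Both comparisons were chosen after seeing the data. Each sets LPS arrays of 1 slide against controls of another, so slide and group cannot be told apart in them. Of all probes, 47.6% passed in the first of these comparisons and 46.1% in the second. Within slide 3, the LPS arrays lay 0.53 ± 0.35 (SE) above control replicate 20, and the limma fit with a fixed slide block gave an adjusted p of 0.361. The direction of the Enpp1 difference thus turned with the choice of control arrays and with the choice of LPS arrays, and only slide 3 held both groups. Slide and group cannot be told apart on slides 1 and 2, nor in any fit without control replicate 20.

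**Figure D1:**
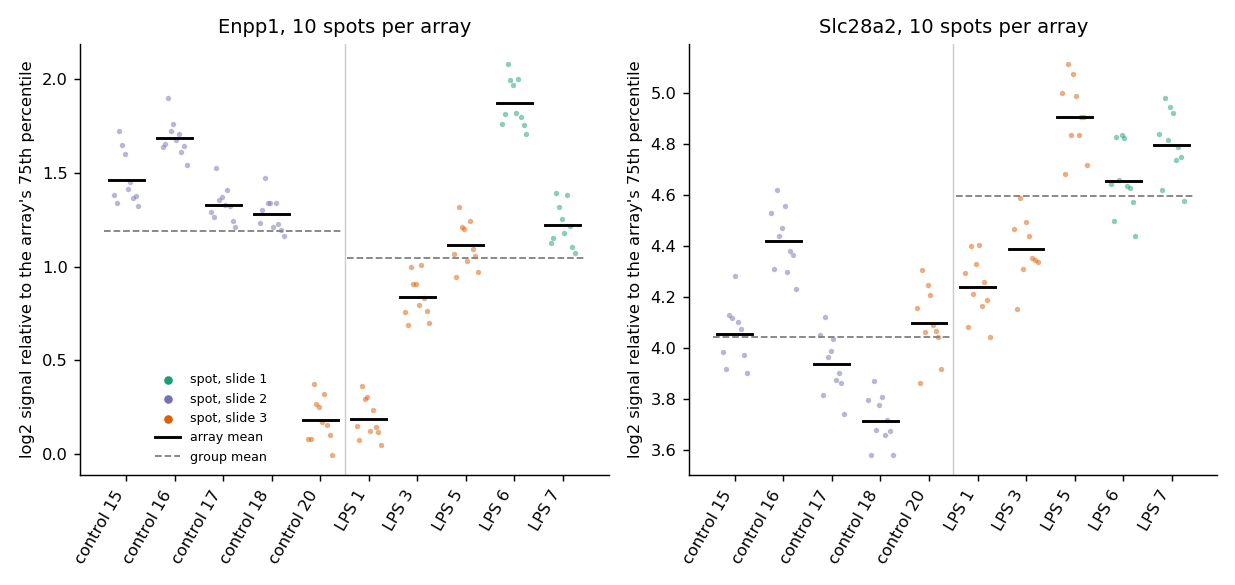
Scaled log2 signal of Enpp1 (left) and Slc28a2 (right) on the 10 arrays, with each usable spot as a point coloured by slide, the array mean as a black bar and the mean of each group of 5 as a dashed line. For Enpp1 the 4 slide 3 arrays are the lowest, and control replicate 20 (0.18) lies beside LPS replicate 1 (0.19); for Slc28a2 the LPS mean is 4.60 and the control mean 4.04.

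The sequence before a transcription start site of Slc28a2 is shown as context for the transcript that differed, since the probe itself comes without a sequence in the files. It is the 250 bases of RefSeq assembly GRCr8 at chr3:129819538-129819787, plus strand, 5′ to 3′, and lies inside the annotated span of the gene, which has further transcript models that start upstream. Capitals mark the single match to the letters ATAAAA, which resemble those of a core promoter box. Whether this match has such a role was not tested.
Slc28a2: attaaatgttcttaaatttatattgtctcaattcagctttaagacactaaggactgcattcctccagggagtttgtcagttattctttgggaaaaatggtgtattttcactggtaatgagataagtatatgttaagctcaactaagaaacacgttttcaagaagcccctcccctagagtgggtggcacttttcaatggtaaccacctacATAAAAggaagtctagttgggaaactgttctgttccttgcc
Its G and C content was 38%, against a median of 51.2% over the 33469 windows of the same length before rat start sites. The ATAAAA match, searched on both strands, starts 41 bases before the start site, and 18.6% of all windows hold one. The window held no match on either strand to the NF-kB consensus, which 6.33% of windows hold, to the AP-1 letters TGANTCA (6.34%) or to the STAT letters TTCNNNGAA (7.67%). A missing match says only that these letters are not in this window.

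For Slc28a2, the nucleoside transporter, the scaled log2 signal in the LPS arrays was 4.24 in replicate 1, 4.39 in replicate 3, 4.91 in replicate 5, 4.65 in replicate 6 and 4.80 in replicate 7. In the controls it was 4.05 in replicate 15, 4.42 in replicate 16, 3.94 in replicate 17, 3.71 in replicate 18 and 4.10 in replicate 20. LPS replicates 5, 6 and 7 lay above every control, and 4 of the 5 controls lay below every LPS array. Control replicate 16 lay above LPS replicates 1 and 3, so the groups overlapped. Before scaling, the signal was 6932, 8473, 14137, 12047 and 13076 in LPS replicates 1, 3, 5, 6 and 7 and 5540, 5696, 4540, 3760 and 7481 in control replicates 15, 16, 17, 18 and 20. On that scale LPS replicate 1 overlapped with control replicate 20 alone.

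The group means of Slc28a2 were 4.60 ± 0.28 (SD, n = 5) in LPS lungs and 4.04 ± 0.26 (SD, n = 5) in controls. The log2 difference was 0.55 ± 0.16 (SE), with a limma adjusted p of 0.0246. The 2-sided exact permutation p was 0.0238, where the smallest possible with 5 arrays against 5 is 0.00794. Of the 36020 probes tested, 11954, or 33.2%, passed the same threshold of 0.05, and 1 call among 2 members is no result about the pair beside that share. Higher calls made up 15% of all probes, and 29.2% of the probes called higher rose by less than Slc28a2. Among the 29 genes with a named probe that was tested, 9 passed, 4 higher and 5 lower.

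The Slc28a2 call was sensitive to single arrays. It was lost without LPS replicate 5, LPS replicate 7, control replicate 17 or control replicate 18, where the log2 difference was 0.48, 0.50, 0.53 and 0.47. In that order, the limma adjusted p was 0.0638, 0.0624, 0.0591 and 0.064, and 24.2%, 23.7%, 22% and 22.1% of all probes were called. Without control replicate 16, the control that overlapped with the LPS arrays, the log2 difference reached 0.65 at a limma adjusted p of 0.0184, and 24.4% of probes were called. Without control replicate 20 it was 0.57 with a limma adjusted p of 0.0167, and 54.7% of probes were called. In that case no slide held both groups, so slide and group cannot be told apart.

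In contrast to Enpp1, the scaled log2 signal of Slc28a2 in control replicate 20 was close to the slide 2 controls, 0.066 above their mean. Before scaling it was not close, at 7481 against 3760 to 5696 in the slide 2 controls. On the scaled signal the LPS arrays of slide 1 were 0.69 ± 0.19 (SE) above the slide 2 controls, with a limma adjusted p of 0.0217. Those of slide 3 were 0.48 ± 0.20 (SE) above the same controls, at an adjusted p of 0.0788 in limma. Both comparisons were chosen after seeing the data, and slide and group cannot be told apart in them. Within slide 3 all 3 LPS arrays lay above control replicate 20, by 0.41 ± 0.29 (SE) on average. With slide as a fixed block, which rests on that comparison, the limma adjusted p was 0.406 and the 95% interval of the log2 difference ran from -0.24 to 1.07. With slide as a random block the log2 difference was 0.49 ± 0.23 (SE) and the limma adjusted p 0.217. The share of all probes called was 10% with the fixed block and 8.7% with the random block.

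**Figure D2:**
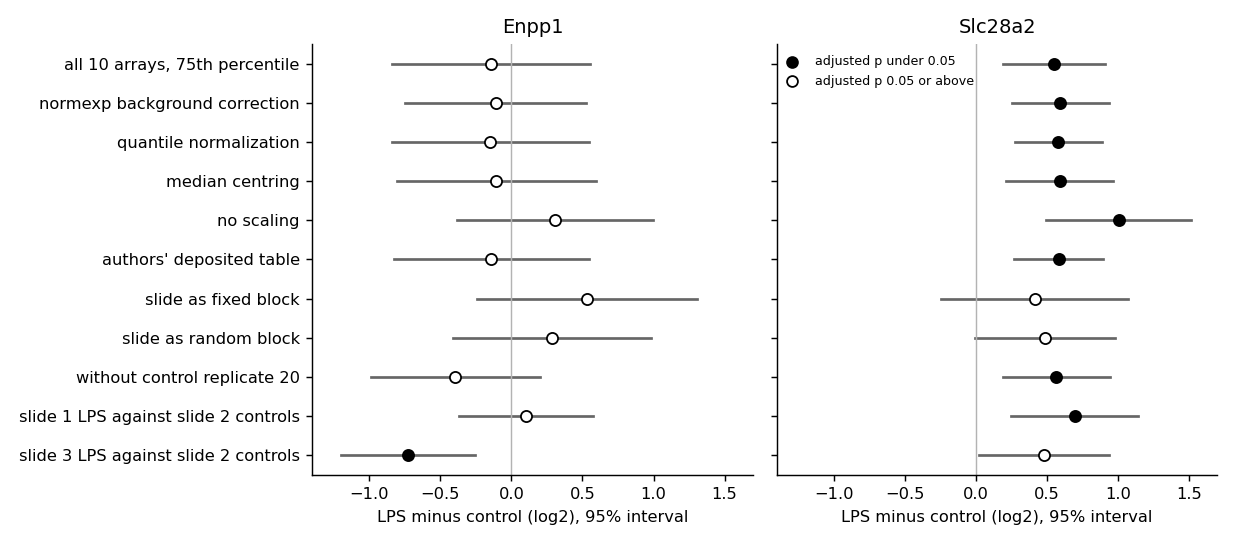
Log2 difference between LPS and control arrays for Enpp1 (left) and Slc28a2 (right) under 11 ways of processing or choosing arrays, with 95% intervals as lines; filled points passed an adjusted p of 0.05 in limma. All Slc28a2 points lie above 0, the lowest at 0.41, and those of Enpp1 on both sides of 0, from -0.73 to 0.53.

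Scaling bore on both values, because the arrays of slides 1 and 3, control replicate 20 among them, were brighter over the whole array. Slide 2 arrays had a 75th percentile of 266 to 334, and the arrays of slides 1 and 3 had one of 367 to 478. Without scaling, the median log2 difference of all tested probes was 0.40, against -0.056 with it. Slc28a2 was then 2.01-fold higher in LPS lungs, which was a log2 difference of 0.61 relative to that median, and the log2 difference of Enpp1 was 0.31, or -0.086 relative to it. With scaling, the values relative to the median of all probes were again 0.61 for Slc28a2 and -0.086 for Enpp1. They match by construction, since a constant subtracted from an array shifts all its probes alike. The share of called probes that were higher in LPS lungs was 45.2% with the 75th percentile, 91.3% without scaling, 51.4% with quantile normalization and 20.2% with normexp background correction. The same limma fit on the authors' deposited table gave 0.58 for Slc28a2, with an adjusted p of 0.0103, and -0.14 for Enpp1, with an adjusted p of 0.747, and 34.7% of its probes were called.

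Whether the 2 genes changed unequally was tested on the log2 difference between the probes within each array, in which any constant subtracted from a whole array cancels. The probes have brightnesses of their own, so only changes of this difference between arrays are readable. It was 4.05, 3.55, 3.79, 2.78 and 3.58 in LPS replicates 1, 3, 5, 6 and 7 and 2.59, 2.73, 2.60, 2.43 and 3.92 in control replicates 15, 16, 17, 18 and 20. All LPS arrays lay above the 4 slide 2 controls, and control replicate 20 lay above 4 of the 5 LPS arrays. The mean was 3.55 ± 0.47 (SD, n = 5) in LPS lungs and 2.86 ± 0.60 (SD, n = 5) in controls, a difference of 0.70 with a 2-sided exact permutation p of 0.103, so unequal change was not shown over all 10 arrays. Without control replicate 20 the difference was 0.96, with an exact permutation p of 0.0159, the smallest that 5 arrays against 4 can give. All controls left were then on slide 2 and all LPS arrays on slides 1 and 3. Slide and group cannot be told apart there, so that p is no test of LPS alone. Within slide 3 it was -0.12, between 3 LPS arrays and 1 control.

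**Figure D3:**
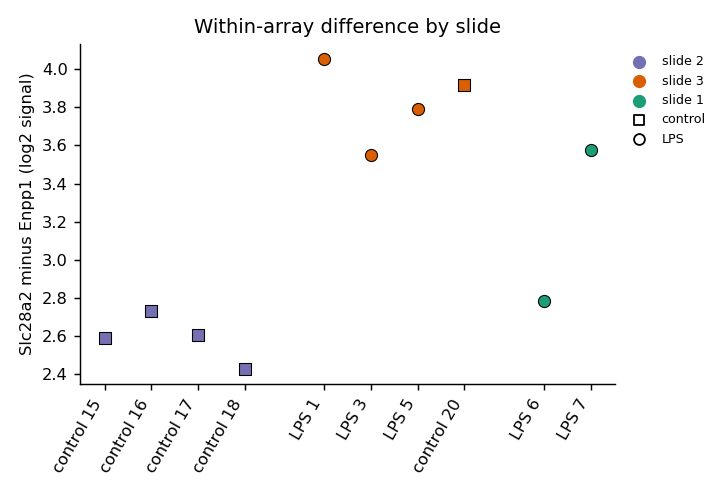
Log2 signal of Slc28a2 minus that of Enpp1 on each array, ordered and coloured by slide, with controls as squares and LPS arrays as circles. The 4 slide 2 controls lie between 2.43 and 2.73 and the 4 slide 3 arrays between 3.55 and 4.05, with control replicate 20 (3.92) among the LPS arrays of its slide.

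The other named genes were ranked by how closely their pattern over the 10 arrays followed each member, as the root mean square of the log2 difference after each gene was centred on its own mean. For Enpp1 the closest of 28 genes were Ptk2b (0.33), Ppp2r2b (0.35) and Magoh (0.39), against a median of 0.51 over the 28. Ptk2b encodes a calcium-regulated tyrosine kinase, Ppp2r2b a regulatory subunit of protein phosphatase 2A, and Magoh a component of the exon junction complex. For Slc28a2 the closest were Ndfip2 (0.27), Pop7 (0.28) and Magoh (0.29), against a median of 0.55. Ndfip2 encodes an adaptor of ubiquitin ligases and Pop7 a subunit of ribonuclease P. None of these 5 genes passed the test between groups, and the limma adjusted p of Ndfip2 was 0.0507. The measure also favours genes that vary little, so a low value need not mean a shared pattern. Over the 10 arrays the SD was 0.26 for Ndfip2, 0.22 for Pop7 and 0.25 for Magoh, against 0.39 for Slc28a2. For Ptk2b and Ppp2r2b it was 0.57 and 0.41, against 0.57 for Enpp1. Enpp1 ranked 17 of 28 for Slc28a2, and Slc28a2 ranked 19 of 28 for Enpp1. The 10 values of each gene come from the same arrays and slides. Control replicate 20, which stood apart over all probes, is among them. Enpp1, Ptk2b, Magoh, Ndfip2 and Pop7 each had their lowest value in it, and Ppp2r2b and Slc28a2 did not. How far the ranks rest on that array was not tested.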

How the data were processed

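The scanner files hold spot intensity on a linear scale, which the authors deposited as it left Agilent Feature Extraction 11.0.1.1 with background subtracted, per the file headers; arrays were not normalized to each other. A second deposited table holds log2 values whose columns share their quartiles, and no label names its tool. Across probes, its columns followed the log2 of the scanner signal with r = 0.9995 to 0.9999.

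Here, log2 processed signal was centred on each array's 75th percentile over noncontrol spots (266 to 478 before the log), outlier spots were dropped and the spots of a probe averaged. Of the probes, 126 without a usable spot on some array and 2658 not well above background on at least 5 arrays were left out, which left 36020. limma 3.58.1 in R 4.3.3 compared 5 LPS with 5 control arrays, 2-sided, with Benjamini-Hochberg adjustment over all tested probes. Exact permutation tests used scipy 1.17.1. The limma fit was also tested on simulated arrays. The outcome is not given here, and it is no evidence about slide effects or outlying arrays in these data.

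Names came from 50 catalogue probes, of which 30 matched a rat gene in the RefSeq table of GRCr8. The promoter table held Slc28a2 and not Enpp1. Both members are always named, with their 3 nearest genes in pattern and any listed pathway gene with a named probe. The members and lists were chosen with earlier results of these data known. The normexp alternative used median spot and background signals and an offset of 50. The number of arrays limits the precision.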

Additional observations from a re-analysis of the deposited data

Results flagged for a closer look

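In the 5 controls, replicate 20 lay far below the others for Enpp1, with a gap to its neighbour of 0.733 of the range of the group. The same array lay far above the other controls for the within-array difference Slc28a2 minus Enpp1, with a gap of 0.796 of the range. It was the only control on slide 3, and this array and its slide cannot be told apart as controls. These were 2 of 6 sets of 5 arrays examined, where chance gives about 0.3. The sets are not independent, since the second holds the Enpp1 values of the first. That rate supposes arrays that are alike, whereas replicate 20 stood apart over all probes (SD 0.74, against 0.23 to 0.38 for every other array). A low value in it was not particular to Enpp1. It was also the lowest control for other named genes, Nlrp3 and Pdk3 among them, though not for all. For Slc28a2 itself no array stood apart by the gap to its neighbour.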

How the results depend on the processing

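No paired analysis was possible because the replicate numbers of the 2 groups do not overlap. Over 23 alternatives, Slc28a2 stayed higher in LPS lungs in all 23 and Enpp1 changed sign in 6. These counts are not of separate trials. Alternatives that changed only the probe filter or limma's variance model could not move the log2 difference. The fixed block and slide 3 alone gave the same log2 difference for each gene. Slc28a2 missed the threshold with slide as a fixed block (0.41), as a random block (0.49), in slide 3 alone (0.41) and for slide 3 LPS against slide 2 controls (0.48), and ranged from 0.47 to 0.65 when each array was left out. Enpp1 turned positive without scaling (0.31), with slide as a fixed (0.53) or random block (0.29), in slide 3 alone (0.53) and for slide 1 LPS against slide 2 controls (0.10), ranged from -0.39 to 0.072 when each array was left out, and passed the threshold in 1 setting, slide 3 LPS against slide 2 controls (-0.73). The last comparison and that of the slide 1 LPS arrays were chosen after seeing the data. The within-array difference of 0.70 was -0.12 with slide as a fixed block or in slide 3 alone, and 0.57 to 0.96 when each array was left out. The count of called probes, 11954 in all, was 3601 and 3135 with the fixed and random block, 768 in slide 3 alone, and 7924 to 19707 when each array was left out. Fits within slide 3 rest on 1 control array, and the cause of the other changes was not tested.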
